A study of Homo sapiens with 34 samples.

Results

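The core spliceosome protein genes were taken by symbol from the deposited tables: SF3A, SF3B, SNRNP, PRPF, LSM or U2AF followed by a number, and SNRP followed by a letter from A to G. The rule found 68 genes among the 62269 of the deposited expression table, 56 of them protein-coding and 12 pseudogenes. Of the 56, 54 had introns with reads in the deposited splicing table and were tested among 12081 genes. U2AF1 and SF3B5 had no such intron and were read in the authors' deposited table alone.

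The spliceosome removes introns in steps. U1 snRNP binds the 5′ splice site, U2AF the 3′ splice site and U2 snRNP the branch site; the U4/U6.U5 tri-snRNP then joins, U1 and U4 leave, and the catalytic site forms around U6. A ring of Sm proteins sits on U1, U2, U4 and U5 RNA, and a ring of LSm proteins on U6 RNA. The symbol rule also takes LSm proteins that are not part of it: LSM1 works in cytoplasmic mRNA decay, LSM10 and LSM11 in the U7 snRNP that cuts histone mRNA, and LSM14A and LSM14B in mRNA storage.

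The cells were of the hTERT RPE-1 line, which comes from human retinal pigment epithelium and was immortalised with telomerase, and carried Cas9, Cas12a and a hybrid guide RNA (hgRNA), in which a Cas9 guide and a Cas12a guide are joined so that both enzymes cut. Ribosome-depleted total RNA was sequenced in 34 libraries, as biological duplicates of 17 hgRNA groups, after puromycin at 20 µg/ml for 72 h and 4 more days of growth. Deletions within introns were made with 2 hgRNAs each in DDX5 and FNBP4, deletions across PTC exons (exons that bring in a premature stop codon) with 2 hgRNAs each in DDX17, HDAC7 and FNBP4, and a deletion within an intron of HNRNPD with 1 hgRNA. Knockouts of DDX5, DDX17, FNBP4 and HDAC7 had 1 hgRNA each, with an exonic Cas9 guide. Both control hgRNAs cut between genes. The series asks which conserved intronic regions cells need, with attention to introns detained at nuclear speckles. The labels describe selected populations with no cloning step, so fewer edited cells and less RNA per cell cannot be told apart. Both HDAC7 deletion hgRNAs shared a Cas9 guide, as did FNBP4 hgRNAs 2 and 3, and the labels give the FNBP4 and HDAC7 knockouts an identical Cas9 guide, repeated for HDAC7 as its Cas12a guide.

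Libraries held 12353936 to 20233610 reads across spliced junctions. Replicate 1 of all 4 knockouts stood apart: unspliced reads made up 0.965% to 1.21% of the reads at intron borders, where a spliced read counts at both of its borders, and 1.92% to 2.29% in replicate 2 of the knockouts, against 2.11% to 2.57% in controls. Replicate 2 of control hgRNA 1, DDX17 deletion hgRNA 1 and HDAC7 deletion hgRNA 1 also differed together from the rest. Of the edited genes, DDX5 fell in its knockout (152 ± 28 against 564 ± 17 CPM of junction reads; SD, n = 2 and 4) and in its deletion (388 ± 17 CPM, n = 4), and DDX17 fell in its knockout by 0.46 on the log2 scale. In its deletion DDX17 was at 399 to 501 CPM, against 403 to 473 CPM in controls, and did not pass (adjusted p = 0.902, limma). HNRNPD was higher in its deletion (269.3 and 334.2 CPM, against 215.7 to 245.7 CPM; adjusted p = 0.0307), and HDAC7 lower in its deletion (137.7 to 192.2 CPM, against 181.9 to 215.5 CPM, with 1 library among the controls; adjusted p = 0.049). FNBP4 and HDAC7 did not pass the test in their knockouts (adjusted p = 0.382 and 0.729, limma), so the libraries carrying those labels had no check from the targeted gene. FNBP4 rose by 1.54 on the log2 scale in its PTC exon deletion and did not pass in its intron deletion (46.0 to 51.5 CPM, against 37.7 to 44.3 CPM; adjusted p = 0.491). Keratins KRT8 and KRT18 lay above 279 CPM in every library and MITF above 9.1 CPM, while RPE65, BEST1, LRAT, RLBP1, TYR and DCT, of the differentiated epithelium, stayed at 0.368 CPM or less. The other pigment epithelium markers listed were OTX2, at 1.86 to 8.07 CPM, PMEL, at no more than 1.22 CPM, and SERPINF1, at no more than 2.47 CPM. Of the 10 markers of other cells the highest was PTPRC, at no more than 1.096 CPM.

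In control cells the authors' deposited table put the 56 protein-coding members between 2.56 and 350 RPKM (reads per kilobase of transcript, scaled to depth), with a median of 31.1, against a median of 0 over all genes listed. SNRPD2, of the Sm ring, was the highest at 350 RPKM and SNRPB followed at 170 RPKM, while LSM11 was the lowest at 2.56 RPKM. Among the pseudogenes LSM12P1 was at 10.7 RPKM, 5 were at 0.11 RPKM or less and 6 were listed at 0. Reads of a pseudogene and its parent may be split by the counting. Across the 17 groups the members varied by a median SD of 0.19 in log2 CPM, against 0.225 for all genes tested, though the members' median level was also higher (log2 CPM of 5.7 against 4.41). The helicase SNRNP200 (0.0692) was among those that varied least. SNRNP35 (0.459) varied most, at about 1 CPM, followed by PRPF40B (0.376), LSM6 (0.319) and SNRNP70 (0.3).

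Every comparison set edited libraries against the same 4 control libraries, so a control value is shared by all of them. Calls are at an adjusted p under 0.05 over all genes, from limma, on log2 CPM after a trend with GC content and transcript length was removed from each library. In the DDX5 deletion 6 members were higher and 3 lower (16.7% of 54), against 19.7% of all genes. The FNBP4 PTC exon deletion had 11 higher and 1 lower (22.2%, all genes 26.9%), and the FNBP4 intron deletion 3 higher (5.56%, all genes 5.67%). In the DDX17 deletion 3 members were lower (5.56%, all genes 8.37%) and in the HDAC7 deletion 1 was higher (1.85%, all genes 3.86%). The HNRNPD deletion had 6 higher (11.1%, all genes 12.6%). Among knockouts, DDX5 had 4 higher and 1 lower (9.26%, all genes 14.6%), DDX17 had 1 higher (1.85%, all genes 4.21%), FNBP4 had 7 higher (13%, all genes 11.9%) and HDAC7 had 6 higher (11.1%, all genes 10.3%). These shares lay near or under those of all genes. By direction, 45 of the 53 member calls were higher (84.9%), against 6912 of 14272 calls of all genes (48.4%). In the FNBP4 PTC exon deletion, where 11 members were higher and 1 lower, 1576 genes were higher and 1678 lower. In the DDX17 knockout 45 of 54 members were above 0 on the log2 scale, against 48.7% of all genes, and in the HDAC7 knockout 40 of 54, against 46.8%. Without removal of the trend 29 of 33 member calls were higher, against 50.1% of those of all genes. The 10 comparisons share their controls, so these counts are not independent of each other, and the difference in direction was not tested.

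**Figure D1:**
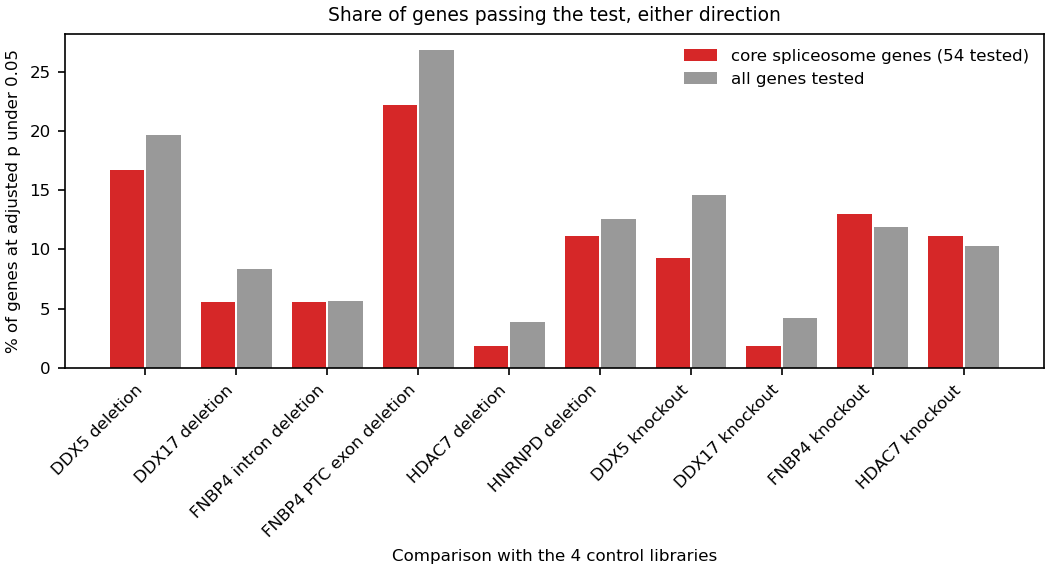
Bars give the percentage of genes at an adjusted p under 0.05 in either direction (y axis) in each of the 10 comparisons with controls (x axis), red for the 54 core spliceosome genes and grey for all 12081 genes. The red bar is taller in the FNBP4 knockout (13% against 11.9%) and the HDAC7 knockout (11.1% against 10.3%) and shorter in the other 8 comparisons.

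The 53 calls fell in 26 of the 54 members (48.1%), against 50.6% of all genes called in some comparison, and 28 members passed in none. Without removal of the trend 24 of the 53 calls still passed, and the members called were 4 higher and 1 lower in the DDX5 deletion, 10 and 2 in the FNBP4 PTC exon deletion, 1 and 0 in the FNBP4 intron deletion, and 4 and 1 in the HNRNPD deletion. They were 1 higher in the DDX5 knockout, 4 in the FNBP4 knockout, 5 in the HDAC7 knockout, and 0 in the DDX17 deletion, the HDAC7 deletion and the DDX17 knockout. In that fit the share of all genes called was 16.9% (DDX5), 26.9% (FNBP4 PTC exon), 3.53% (FNBP4 intron), 8.87% (HNRNPD), 4.98% (DDX17) and 1.9% (HDAC7) in deletions. In the DDX5, FNBP4, HDAC7 and DDX17 knockouts this share was 9.99%, 8.2%, 6.5% and 1.76%. Just 4 calls passed in every alternative fit, also with any 1 library left out: SNRNP70 and SNRNP27 in the DDX5 deletion, SNRPA1 in the FNBP4 PTC exon deletion and LSM8 in the HNRNPD deletion. The other 49 were each lost in 1 or more of the 6 or 8 fits that left out 1 library, with an adjusted p of up to 0.586. Without the 3 replicate 2 libraries named above, 38 of the 53 passed. For calls that did not pass without trend removal, that p is given beside them. A gene said to have passed in no comparison did not pass in the fit with trend removal over all libraries; where it passed without trend removal, with a replicate block, with the libraries of 1 comparison alone or in the authors' deposited table, that is given.

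**Figure D2:**
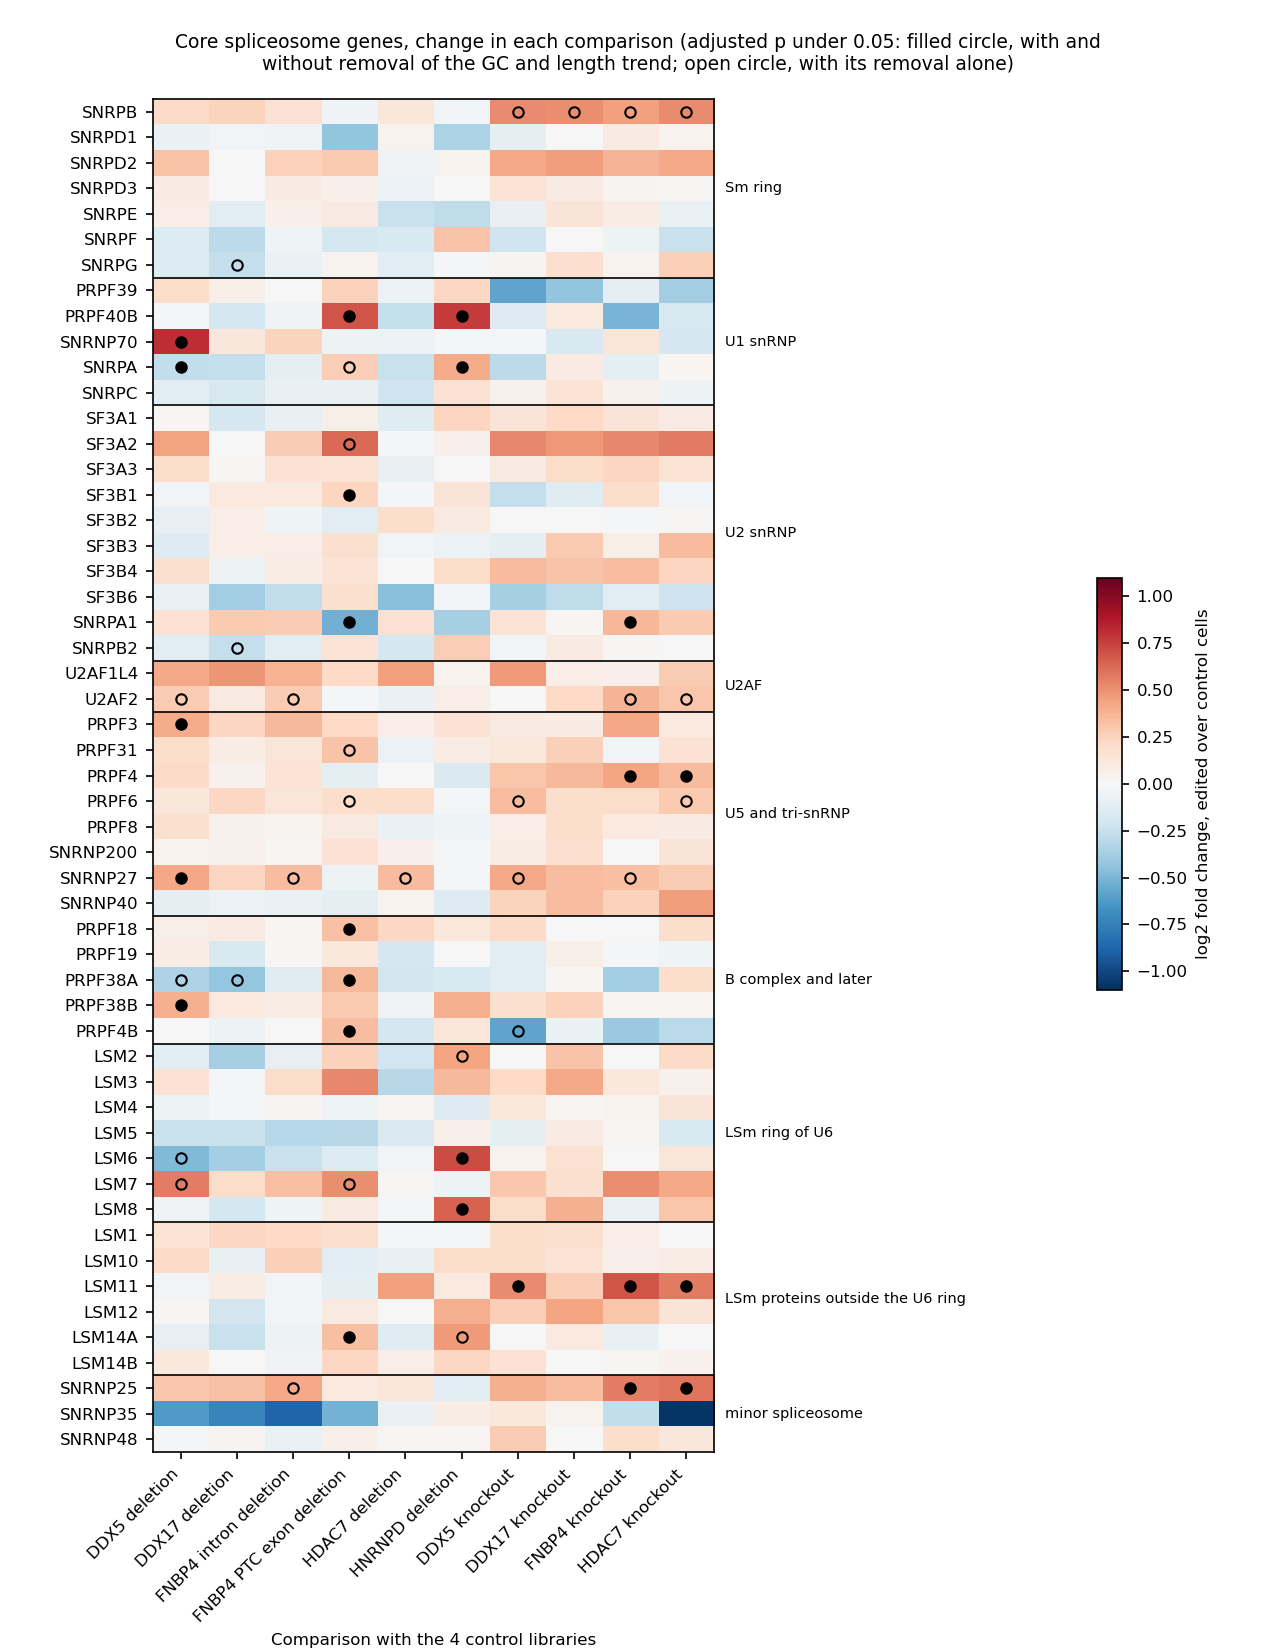
Colour gives the log2 fold change of each of 53 tested members (rows, grouped by role) in each comparison with the 4 controls (columns), red for higher in edited cells. Circles mark an adjusted p under 0.05, filled where the call also passed without removal of the trend (24 of 53). SNRNP70 in the DDX5 deletion (0.81) is the deepest red that passed the test.

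Of the U1 snRNP genes, SNRNP70 and SNRPA moved in opposite directions in the DDX5 deletion. SNRNP70 codes for U1-70K, which holds the first stem-loop of U1 RNA. It had 215.9 and 206 CPM with DDX5 deletion hgRNA 1 and 203 and 217 CPM with hgRNA 2, against 131 and 104 CPM with control hgRNA 1 and 115 and 133 CPM with control hgRNA 2. All 4 deletion libraries lay above all 4 controls, and the log2 change was 0.81 ± 0.15 (SE, adjusted p = 0.000587, limma). Without trend removal it was 0.53 (adjusted p = 0.0166). In the other 9 comparisons SNRNP70 changed by -0.18 to 0.24 on the log2 scale and passed in none. The DDX5 knockout libraries were at 96.8 and 144 CPM, on either side of the controls' mean of 121 CPM.

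The rise of SNRNP70 differed between its introns when reads were scaled by library only. SNRNP70 has 9 introns in the splicing table, here numbered in transcript order, and this split was looked for after the values were seen. Spliced reads over intron 1 were 29.9 ± 3.5 CPM in the DDX5 deletion and 28.4 ± 5.2 CPM in controls (SD, n = 4 each), and over intron 2 they were 16.4 ± 1.6 and 15.8 ± 3.5 CPM. Over intron 4 (chr19:49090521-49098426, GRCh38, plus strand) they were 9.78 ± 0.96 CPM in the deletion and 4.47 ± 0.42 CPM in controls, a ratio of 2.19. At introns 5, 6, 8 and 9 the ratios were 1.71, 1.77, 1.71 and 1.54, and at each of them and at intron 4 all 4 deletion libraries lay above all 4 controls. Introns 1, 2, 3 and 7 had ratios of 1.05, 1.04, 0.949 and 1.26, with the groups overlapping. These values were scaled by library only, with no trend removed and no test per intron. The gene's log2 change was 0.53 without trend removal and 0.81 with it, so the ratios compare with the smaller value. The authors' deposited table, which counts whole transcripts, gave SNRNP70 a log2 change of 0.479 (FDR 0.489) with DDX5 hgRNA 1 and 0.683 (FDR 0.264) with hgRNA 2.

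**Figure D3:**
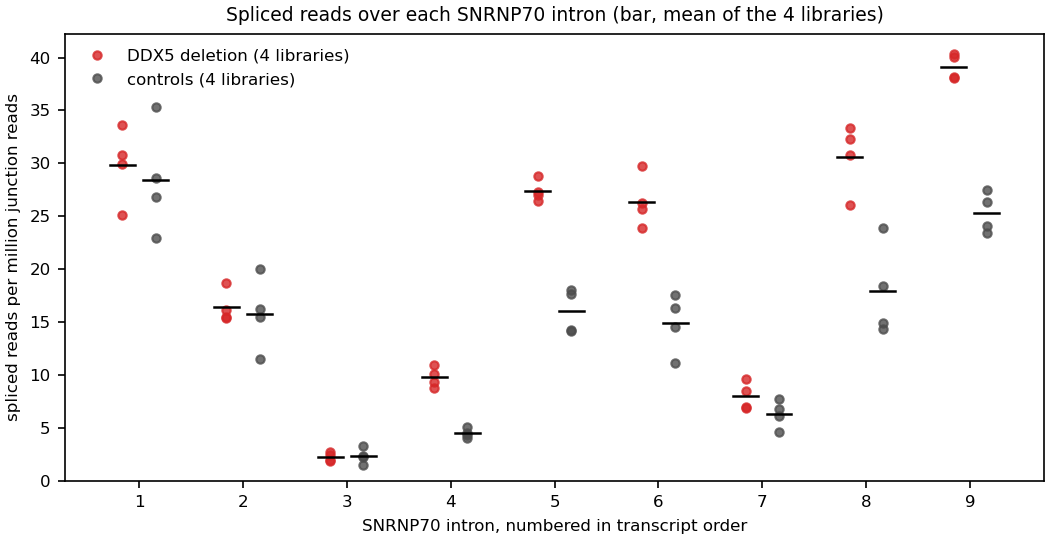
Each point is a library, with spliced reads in CPM (y axis) over each SNRNP70 intron in transcript order (x axis), red for the DDX5 deletion and grey for controls; bars are means of 4 libraries. The groups overlap at introns 1, 2, 3 and 7 and are apart at introns 4, 5, 6, 8 and 9.

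SNRPA codes for the U1 protein that binds the second stem-loop of U1 RNA. It had 31.9 and 32.3 CPM with DDX5 deletion hgRNA 1 and 29.03 and 27.4 CPM with hgRNA 2, against 38.05, 37.7, 34.99 and 34.6 CPM in controls. The groups did not overlap, and SNRPA fell by 0.27 on the log2 scale (adjusted p = 0.0268, limma; -0.45 and 0.00556 without trend removal). The call was lost in 7 of 8 fits that left out 1 library, with an adjusted p of up to 0.0992. The authors' deposited table also had SNRPA lower, by -0.459 (FDR 0.0417) and -0.564 (FDR 0.0107) with the 2 hgRNAs. In the HNRNPD deletion SNRPA rose instead, with 52.6 and 44.0 CPM against the same controls (log2 0.41 ± 0.10, SE, adjusted p = 0.00891), a call lost without HNRNPD replicate 1 (adjusted p = 0.244). In the FNBP4 PTC exon deletion it rose by 0.27 (adjusted p = 0.0189; 0.753 without trend removal). The authors' deposited table gave SNRPA 0.397 (FDR 0.104) in the HNRNPD deletion, and -0.29 (FDR 0.215) and 0.0425 (FDR 1) with FNBP4 PTC exon hgRNAs 3 and 4.

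PRPF40B, a protein associated with U1 snRNP, rose in the same 2 comparisons. It had 27.1 and 19.6 CPM with FNBP4 PTC exon hgRNA 3 and 19.7 and 19.9 CPM with hgRNA 4, against 14.2, 13.3, 12.1 and 13.3 CPM in controls (log2 0.69 ± 0.18, SE, adjusted p = 0.00767, limma). All 4 deletion libraries were above the controls, and without hgRNA 3 replicate 1 the adjusted p was 0.0519. HNRNPD deletion libraries had 20.6 and 24.6 CPM (log2 0.77 ± 0.22, adjusted p = 0.022), a call lost in 4 of 6 fits that left out 1 library. PRPF40B passed in no comparison of the authors' deposited table. SNRPC and PRPF39 passed in no comparison, though PRPF39 did in the DDX5 deletion with the libraries of that comparison alone (log2 0.21, adjusted p = 0.0497); SNRPC, which steadies the pairing of U1 with the 5′ splice site, changed by -0.22 to 0.16 on the log2 scale.

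In the U2 snRNP, SNRPA1 was the member with opposite calls. Its protein binds U2 RNA together with that of SNRPB2. It had 30.7 and 38.3 CPM with FNBP4 PTC exon hgRNA 3 and 36.6 and 38.4 CPM with hgRNA 4, against 50.0, 54.2, 54.2 and 49.1 CPM in controls. The groups were well apart, and SNRPA1 fell by 0.53 on the log2 scale (SE 0.10, adjusted p = 0.000443, limma), by 0.39 without trend removal (adjusted p = 0.00385). In the FNBP4 knockout it had 61.3 and 72.3 CPM (log2 0.36, adjusted p = 0.0472), a call lost in all 6 fits that left out 1 library. HNRNPD deletion libraries had 34.6 and 47.3 CPM and did not pass, at -0.36, but passed without trend removal (-0.44, adjusted p = 0.0169), with a replicate block (0.0338) and without replicate 1 of the 4 knockouts (0.0489). Without trend removal SNRPA1 was also higher in the FNBP4 intron deletion (0.34, adjusted p = 0.0347). For SNRPA1 the authors' deposited table gave -0.475 (FDR 0.0379) in the HNRNPD deletion, -0.464 (FDR 0.02) with FNBP4 PTC exon hgRNA 3 and 0.431 (FDR 0.0432) in the FNBP4 knockout.

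SF3B1, the largest U2 subunit, which grips the branch site, was at 472 ± 24 CPM with FNBP4 hgRNAs 3 and 4, against 400 ± 4 CPM in controls (SD, n = 4 each; log2 0.24, adjusted p = 0.0196, limma; 0.46 and 0.00636 without trend removal). SF3A2, which sits with it at the branch site, had 198 and 96.0 CPM with hgRNA 3 and 95.7 and 92.3 CPM with hgRNA 4, against 78.1, 60.4, 70.1 and 89.9 CPM in controls. Its call (log2 0.62, adjusted p = 0.00893) was lost without trend removal (adjusted p = 0.266) and without hgRNA 3 replicate 1 (log2 0.34, adjusted p = 0.106). SNRPB2 fell in the DDX17 deletion to 45.1 ± 4.4 CPM against 54.2 ± 1.5 CPM (log2 -0.26, adjusted p = 0.0383; 0.22 without trend removal). SF3A1, SF3A3, SF3B2, SF3B3, SF3B4 and SF3B6 passed in no comparison. Without trend removal SF3B3 was higher in the HDAC7 knockout (0.375, adjusted p = 0.0371) and the FNBP4 PTC exon deletion (0.28, 0.0225), and the authors' deposited table also had it higher in the HDAC7 knockout (0.396, FDR 0.0403). With the libraries of the comparison alone, SF3A3 (0.20, adjusted p = 0.0166) and SF3B4 (0.18, 0.0185) were higher and SF3B3 lower (-0.14, 0.044) in the DDX5 deletion, and SF3B4 was higher in the DDX5 knockout (0.34, 0.0494).

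U2AF2, the large U2AF subunit, which binds the polypyrimidine tract, was called higher in 4 comparisons, none of which passed without trend removal. In the DDX5 deletion it had 229, 245, 212 and 225 CPM, against 188, 171, 188 and 204 CPM in controls (log2 0.28, adjusted p = 0.0139, limma; 0.611 without trend removal). The FNBP4 intron deletion (0.28, 0.0389; 0.372 without), the FNBP4 knockout (0.38, 0.0119; 0.137 without) and the HDAC7 knockout (0.305, 0.0445; 0.268 without) also had U2AF2 higher. In the FNBP4 PTC exon deletion U2AF2 was lower without trend removal (-0.28, adjusted p = 0.0171), and in the authors' deposited table it was lower, by -0.428 (FDR 0.00507), with hgRNA 3 of that deletion. U2AF1, the small subunit, which reads the AG of the 3′ splice site, was higher in that table with both DDX5 deletion hgRNAs, by 0.58 (FDR 0.0214) and 0.626 (FDR 0.0151). U2AF1 has a near-identical copy in GRCh38, so its value is uncertain. SF3B5, the other member read there alone, was lower with FNBP4 PTC exon hgRNA 3, by -0.702 (FDR 0.0251).

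Of the 8 U5 and tri-snRNP genes, 5 were called in some comparison, each time higher, which is near the 26 of 54 members called somewhere and the 45 of 53 calls that were higher. SNRNP27, a small tri-snRNP protein, had 50.7 and 50.9 CPM with DDX5 deletion hgRNA 1 and 44.6 and 50.3 CPM with hgRNA 2, against 35.15, 36.5, 36.9 and 37.9 CPM in controls. The groups did not overlap, with a log2 change of 0.42 ± 0.09 (SE, adjusted p = 0.00145, limma) and 0.50 without trend removal (adjusted p = 0.0111). The authors' deposited table gave it 0.489 (FDR 0.0779) and 0.366 (FDR 0.291) with the 2 hgRNAs. It was also called in the FNBP4 intron deletion (0.34, adjusted p = 0.0234), the HDAC7 deletion (0.35, 0.0282), the DDX5 knockout (0.41, 0.012) and the FNBP4 knockout (0.33, 0.045). Those 4 did not pass without trend removal (adjusted p of 0.104, 0.396, 0.0648 and 0.104). At 38.32 to 46.56 CPM, the DDX17 deletion libraries also lay above every SNRNP27 control value. So did those of the DDX17 knockout (42.91 and 49.89 CPM) and the HDAC7 knockout (46.18 and 42.54 CPM), and none of these passed. SNRNP27 overlapped the controls with FNBP4 hgRNAs 3 and 4 (33.65 to 39.6 CPM) and with the HNRNPD hgRNA (35.03 and 37.19 CPM). What part the shared controls had in the SNRNP27 calls was not tested. PRPF3, a U4/U6 protein, had 61.0, 63.8, 55.8 and 64.5 CPM in the DDX5 deletion, all above the controls at 49.4, 42.2, 43.7 and 49.3 CPM (log2 0.41, adjusted p = 0.0187; 0.48 and 0.0147 without trend removal). Its call was lost in 4 of 8 fits that left out 1 library. PRPF3 was also above 0 on the log2 scale in the other 9 comparisons (0.07 to 0.42), passing in none. In the FNBP4 intron deletion it was at 54.6 to 61.9 CPM, above the controls too. With the libraries of that comparison alone it passed there (0.36, adjusted p = 0.00866, limma).

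PRPF4, the partner of PRPF3 on U4/U6, was higher in the FNBP4 knockout (75.5 and 61.5 CPM; log2 0.43, adjusted p = 0.00967, limma). It was also higher in the HDAC7 knockout (69.98 and 58.95 CPM; 0.35, 0.0406), against 50.6 ± 4.6 CPM in controls. The DDX5 knockout (67.1 and 58.1 CPM) and the DDX17 knockout (67.3 and 62.1 CPM) also lay above every control and did not pass. PRPF6, which bridges U5 and U4/U6, was called in the DDX5 knockout (0.34), the HDAC7 knockout (0.28) and the FNBP4 PTC exon deletion (0.20), and PRPF31, a U4/U6 protein, in that deletion (0.32). None of these PRPF6 and PRPF31 calls passed without trend removal, with adjusted p of 0.182, 0.288, 0.866 and 0.366. Of the U5 proteins, PRPF8, which lines the catalytic centre, SNRNP200, the helicase that unwinds U4 from U6, and SNRNP40 passed in no comparison. PRPF8 was higher in the DDX5 deletion with the libraries of that comparison alone (0.18, adjusted p = 0.0106). SNRNP40 was higher in the HDAC7 knockout without trend removal (0.54, adjusted p = 0.0364) and in the authors' deposited table (0.612, FDR 0.00725).

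Among proteins of the B complex and later steps, PRPF38A and PRPF38B, a related pair that joins with the tri-snRNP, went apart in the DDX5 deletion. PRPF38B had 20.8, 19.9, 24.4 and 22.1 CPM there, against 16.1, 17.1, 16.2 and 17.1 CPM in controls (log2 0.39, adjusted p = 0.0163, limma; 0.50 and 0.00641 without trend removal). PRPF38A had 6.41, 6.82, 6.92 and 7.57 CPM, against 9.97, 8.55, 8.37 and 8.16 CPM (log2 -0.34, adjusted p = 0.0396; 0.375 without trend removal), and it was also lower in the DDX17 deletion (-0.42, 0.0291; 0.154 without). In the FNBP4 PTC exon deletion PRPF38A rose to 11.7, 10.3, 11.7 and 11.3 CPM, all above the controls (log2 0.36, adjusted p = 0.0164; 0.56 and 0.00803 without). The authors' deposited table had it higher there too, by 0.489 (FDR 0.00109) and 0.426 (FDR 0.00858). PRPF4B, a kinase that phosphorylates tri-snRNP proteins, rose there (log2 0.34, adjusted p = 0.0478), as did PRPF18, a second-step factor (0.32, 0.0459). PRPF38B was not called with FNBP4 hgRNAs 3 and 4 or with the HNRNPD hgRNA, though all of those libraries lay above every control. Without trend removal PRPF38B passed for the FNBP4 PTC exon deletion (log2 0.43, adjusted p = 0.0127, limma). With a replicate block it passed for that deletion (0.29, 0.0344) and for the HNRNPD deletion (0.39, 0.0353). PRPF4B fell in the DDX5 knockout, to 24.5 and 34.2 CPM against 43.2 ± 2.2 CPM (log2 -0.58, adjusted p = 0.0206; 0.124 without trend removal). PRPF19, a ubiquitin ligase of the activated spliceosome, passed in no comparison.

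In the LSm ring of U6, LSM8, LSM6 and LSM2 rose in the HNRNPD deletion, 3 of 7 tested, where 12.6% of all genes were called. LSM8, the subunit that marks the nuclear ring, had 13.45 and 16.2 CPM in HNRNPD deletion cells, against 8.85, 10.9, 9.003 and 8.96 CPM in controls. Both libraries were above the controls, with a log2 change of 0.65 ± 0.11 (SE, adjusted p = 0.000565, limma), and 0.59 without trend removal (adjusted p = 0.014). LSM6 had 8.71 and 11.7 CPM, against 5.96, 7.45, 5.81 and 5.40 CPM (log2 0.72, adjusted p = 0.00653; 0.63 and 0.0265 without trend removal), and without HNRNPD replicate 2 the adjusted p was 0.182. LSM2 passed with trend removal alone (0.43, adjusted p = 0.0392; 0.11 without). The authors' deposited table did not call these in the HNRNPD deletion, with LSM8 at 0.209 (FDR 0.638) and LSM6 at -0.00353 (FDR 1). In the DDX5 deletion LSM6 was lower, at 4.43 ± 0.82 CPM against 6.16 ± 0.90 CPM with 1 library among the controls (adjusted p = 0.0311; 0.0969 without trend removal). LSM7 was higher there, at 16.8 to 18.6 CPM against 9.77 to 15.6 CPM (adjusted p = 0.0293; 0.253 without). LSM7 was also higher in the FNBP4 PTC exon deletion, where 1 library lay among the controls (log2 0.51, adjusted p = 0.0388; 0.467 without). With DDX5 hgRNAs 1 and 2 the authors' deposited table gave LSM6 0.23 and -0.254 (FDR 0.619 and 0.633), and LSM7 -0.00776 and -0.0246. With FNBP4 PTC exon hgRNAs 3 and 4 it gave LSM7 -0.26 and -0.0134, and it called none of these. LSM3, LSM4 and LSM5 passed in no comparison. With a replicate block LSM3 was higher (0.54, adjusted p = 0.0287) in the FNBP4 PTC exon deletion, and the authors' deposited table had LSM3 higher (0.964, FDR 0.00899), LSM8 higher (0.503, FDR 0.0147) and LSM4 lower (-0.678, FDR 0.0203) with hgRNA 3 of that deletion.

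Of the Sm ring, SNRPB was higher in all 4 knockouts. It codes for SmB and SmB′. Knockout libraries had 346 and 365 CPM for DDX5, 350 and 354 CPM for DDX17, 322 and 355 CPM for FNBP4 and 367 and 345 CPM for HDAC7, against 232, 275, 241 and 244 CPM in controls. All 8 lay above all 4 controls, with log2 changes of 0.45 to 0.52 (adjusted p of 0.0197, 0.0494, 0.0458 and 0.0244, limma), and none passed without trend removal (0.132 to 0.262). Against the mean of the other 3 knockouts, SNRPB changed by -0.07 to 0.03. The authors' deposited table gave SNRPB 0.457 to 0.599 in the 4 knockouts, at an FDR of 0.108 to 0.262. Among deletion libraries, replicate 2 of DDX17 deletion hgRNA 1 was at 407.5 CPM, above every knockout library. SNRPG fell in the DDX17 deletion to 44.1 ± 1.5 CPM against 52.7 ± 0.6 CPM (log2 -0.26, adjusted p = 0.0285; 0.13 without trend removal). SNRPD1, SNRPD2, SNRPD3, SNRPE and SNRPF passed in no comparison. With the libraries of the comparison alone, SNRPD2 was higher in the DDX5 deletion (0.31, adjusted p = 0.013) and SNRPD1 lower (-0.45, 0.0466) in the FNBP4 PTC exon deletion. The authors' deposited table had SNRPD1 lower with FNBP4 PTC exon hgRNA 3 (-0.432, FDR 0.0433) and in the HNRNPD deletion (-0.53, FDR 0.0218), and SNRPD2 higher in the DDX5 knockout (0.498, FDR 0.0453) and the HDAC7 knockout (0.522, FDR 0.0422).

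The knockouts shared further calls outside the ring. LSM11, of the U7 snRNP, had 6.45 and 5.77 CPM in the DDX5 knockout, 7.38 and 6.52 CPM in the FNBP4 knockout and 6.53 and 6.16 CPM in the HDAC7 knockout, against 4.14, 4.58, 4.10 and 4.30 CPM in controls (log2 0.52, 0.69 and 0.57; adjusted p = 0.0406, 0.00745 and 0.0348, limma). The DDX17 knockout libraries, at 5.13 and 5.20 CPM, were also above the controls but did not pass. LSM11 was not high in knockouts alone. HDAC7 deletion libraries, at 6.86, 5.02, 6.31 and 5.19 CPM, were above the controls as well and did not pass (log2 0.447). Replicate 2 of DDX17 deletion hgRNA 1 was at 6.78 CPM. SNRNP25, of the U11/U12 snRNP of the minor spliceosome, had 51.0 and 40.3 CPM in the FNBP4 knockout and 51.7 and 41 CPM in the HDAC7 knockout, against 30.7 ± 4.2 CPM (log2 0.57 and 0.59, adjusted p = 0.00807 and 0.00764). SNRNP25 was also higher in the FNBP4 intron deletion (0.42, 0.0286; 0.152 without trend removal). The DDX5 knockout (43.2 and 36.9 CPM) and the DDX17 knockout (41.4 and 36.3 CPM) were above the highest control (34.8 CPM) and did not pass. With a replicate block SNRNP25 passed in the DDX5 knockout (0.39, adjusted p = 0.0352, limma). DDX5 deletion libraries were at 34.8 to 41.8 CPM. LSM14A was higher in the FNBP4 PTC exon deletion (93.5 ± 3.65 CPM against 74.5 ± 3.07 CPM, adjusted p = 0.0186; 0.0192 without trend removal) and the HNRNPD deletion (103 ± 7 CPM, adjusted p = 0.015; 0.23 without trend removal). SNRNP35 and SNRNP48, the other minor-spliceosome members, passed in no comparison, though SNRNP35 was lower in the FNBP4 intron deletion with the libraries of that comparison alone (-0.88, adjusted p = 0.0495).

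The knockout calls were also read without replicate 1, whose libraries stood apart. With the 1 library then left for each knockout, none of the 19 knockout calls passed (lowest adjusted p 0.0657, limma), but all 19 kept their sign. Their log2 changes were 0.551 to 1.34 times those with both replicates, with a median of 0.919. SNRPB was as high in replicate 2, at 345 to 365 CPM, as in replicate 1, at 322 to 367 CPM. The furthest below 1 was PRPF4B in the DDX5 knockout (-0.32 without replicate 1, against -0.58 with it). Of the 19, 11 were also lost without replicate 2 of their own knockout and 12 without some control library. Against the mean of the other 3 knockouts none of the 19 passed either (lowest adjusted p 0.402). What part the low share of unspliced reads in replicate 1 had in these calls was not tested.

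**Figure D4:**
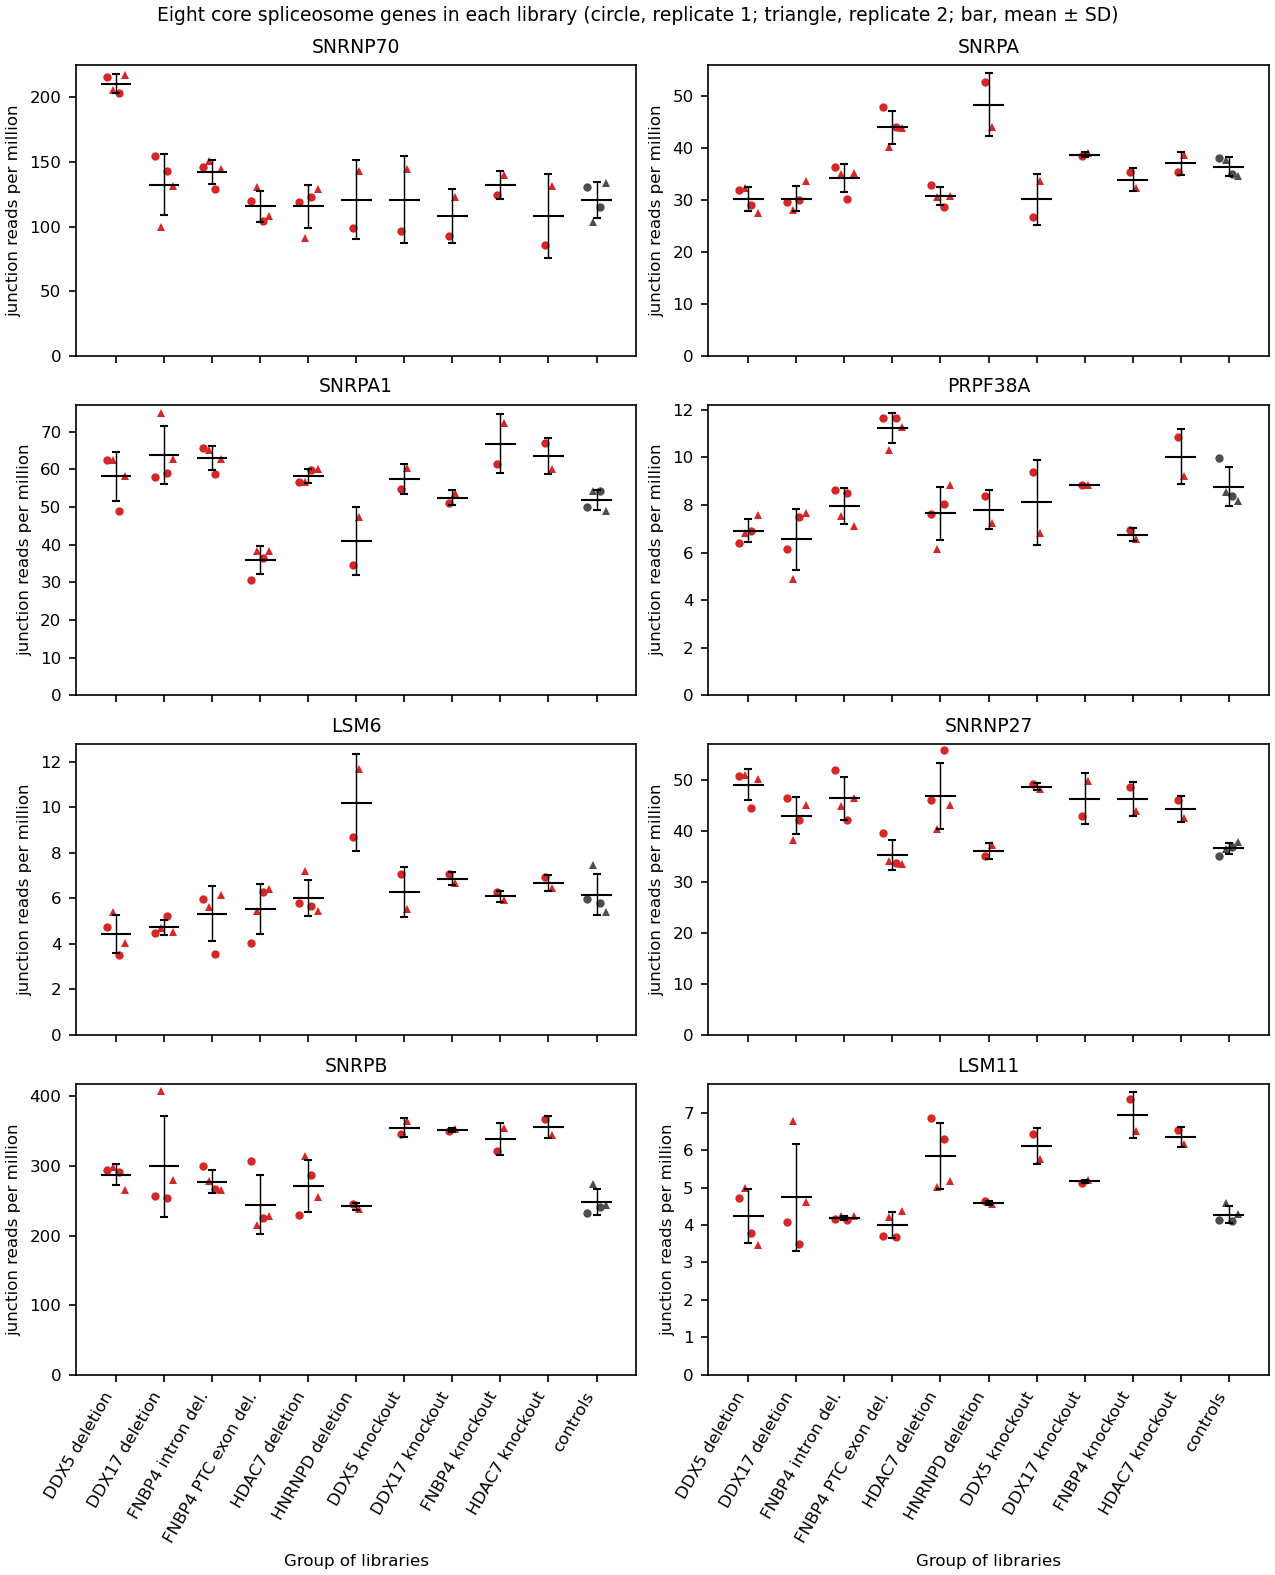
Each panel shows 1 gene in CPM of junction reads after trend removal (y axis) by group of libraries (x axis), red for edited and grey for control libraries, with circles for replicate 1, triangles for replicate 2 and bars for mean ± SD. SNRNP70 is higher in the DDX5 deletion (203 to 217) than in any other library, SNRPA1 low in the FNBP4 PTC exon deletion (30.7 to 38.4), LSM6 high in the HNRNPD deletion (8.71 and 11.7), and SNRPB above controls in all 8 knockout libraries.

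A further 60 genes of the spliceosome and its assembly, none of them a member, were listed, and 59 were tested. In the FNBP4 PTC exon deletion 13 were higher and 3 lower, among them WDR77, a methylosome subunit that acts on Sm proteins, at 19.8 ± 2.7 CPM against 37.3 ± 4.8 CPM (log2 -0.91, adjusted p = 5.13e-05, limma), and CWC22, which was higher (0.59, 0.00174). In the HNRNPD deletion 7 were higher and 3 lower, led by SYF2 (0.95, adjusted p = 0.000657) and GEMIN8, of the SMN complex (0.53, 0.0109). The DDX5 deletion had 4 higher and 1 lower, led by PDCD7 of the U11/U12 snRNP (0.73, 0.00544) and DHX16 (0.28, 0.00688). GEMIN5, which delivers snRNAs to the SMN complex, was among the 4 higher in the FNBP4 knockout (0.57, adjusted p = 0.000112) and the 6 higher in the HDAC7 knockout (0.54, 0.000367). CTNNBL1 of the catalytic spliceosome (0.0117) was next in the FNBP4 knockout, and ZMAT5 of the U11/U12 snRNP (0.0243) in the HDAC7 knockout. The DDX5 knockout had 5 higher and 1 lower, led by the helicase DHX38 (0.43, 0.00346) and ZMAT5 (0.60, 0.0252). DHX16 was the 1 gene higher in the DDX17 deletion (0.23, 0.0421), and the other 3 comparisons had none by limma. The median log2 change of the 59 was 0.13 in the FNBP4 PTC exon deletion, where that of the 54 members was 0.11 and that of all genes -0.01. Beside these counts out of 59, the share of all genes called was 26.9% (FNBP4 PTC exon), 12.6% (HNRNPD), 19.7% (DDX5) and 8.37% (DDX17) in deletions. In the FNBP4, HDAC7 and DDX5 knockouts this share was 11.9%, 10.3% and 14.6%. Where none of the 59 passed, it was 5.67% (FNBP4 intron deletion), 3.86% (HDAC7 deletion) and 4.21% (DDX17 knockout).

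Splicing of the members themselves was tested on 1561 to 1719 events per comparison (exons, introns and alternative splice sites) with 20 reads in each library. No member event passed an adjusted p under 0.05 with a difference of 10 percentage points in any comparison by limma on the libraries of that comparison and the controls. Over all events this rule called 0% in 9 comparisons and 0.000351% in the FNBP4 intron deletion. Between 87 and 220 member events had an unadjusted p under 0.05, and 0 to 9 of these also differed by 10 points. The same unadjusted counts over all events are not given here, so these say nothing particular about the members. A fit over all 34 libraries, chosen after the data were seen, also called no member event. It called 0.0214% of all events in the DDX5 deletion, 0.000412% in the DDX17 deletion, 0.00823% in the FNBP4 PTC exon deletion, 0.000349% in the HNRNPD deletion, and 0% in the FNBP4 intron and HDAC7 deletions. For knockouts it called 0.00325% (DDX5), 0.00747% (DDX17), 0.0066% (FNBP4) and 0.00483% (HDAC7).

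Introns that stay in the transcript were few among the members. With 20 reads in every library, 396 member introns could be read, and 5 of them (1.26%) were retained at 10% or more in every control, against 3.63% of 52188 introns of all genes. They lie in SNRNP70 (chr19:49101472-49104633, intron 7), SF3B1 (chr2:197418589-197420427), PRPF40B (chr12:49642373-49642579), U2AF1L4 (chr19:35744146-35744322) and PRPF8 (chr17:1684583-1684779), in GRCh38 coordinates. Mean retention in controls was 53.7 ± 8.7% for SNRNP70, 25.9% for SF3B1, 23% for PRPF40B, 18.7% for U2AF1L4 and 17.6% for PRPF8 (n = 4). Member introns with fewer than 20 reads in some library were left out. Among them, a PRPF39 intron was at 18.6% to 34.38% in controls and a PRPF3 intron at 18.99% to 45.45%. The splice sites of the 5 introns that met the rule are shown from GENCODE v29 transcripts that span them, sense strand, 5′ to 3′. Each is given with 10 exon and 20 intron bases. Capitals mark the first and last 2 intron bases, which are GT and AG in all 5.
SNRNP70 5′ site: gacatgcactGTgagtacctcccgccgagc
SNRNP70 3′ site: cctccccacatctgttacAGccgcttacaa
SF3B1 5′ site: tttgcagatgGTaattctttcccacttttc
SF3B1 3′ site: gttgctgttcttttctgcAGgagggaaaac
PRPF40B 5′ site: ctgggaagagGTcaggagcgtagcctggcc
PRPF40B 3′ site: cagtgctctcctcgttcaAGgtccgtgagc
U2AF1L4 5′ site: ctatgtcaagGTgcttgctgccccccactt
U2AF1L4 3′ site: ctgactgacatttcctgcAGttccggaggg
PRPF8 5′ site: ggcctgtgggGTgcgtggcaggcgtttaag
PRPF8 3′ site: tctatcccgccgctccccAGattctccgga

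For 3 of these 5 introns, in SNRNP70, SF3B1 and PRPF40B, every replicate 1 knockout library lay below every replicate 2 knockout library. The SNRNP70 intron was at 3.59%, 2.22%, 1.59% and 4.15% in replicate 1 of the DDX5, DDX17, FNBP4 and HDAC7 knockouts, and at 56.7%, 31.7%, 43.3% and 40.5% in replicate 2, against 43.8% to 64.3% in controls. For FNBP4 replicate 1 the 95% Wilson interval was 0.7% to 4.52%, and the widest of these 4, for HDAC7, was 2.01% to 9.16% over 138 reads; such intervals cover counting error only. The SF3B1 intron was at 1.03% to 2.95% in replicate 1 and 16% to 27.2% in replicate 2, against 20.4% to 38.3% in controls. The PRPF40B intron, read 23 to 75 times a library, was at 0% to 5.66% and 8.33% to 15.2%, against 18.4% to 27.9%. Its Wilson intervals overlapped between the 2 replicates of each knockout. For the HDAC7 knockout they were 1.98% to 22.6% in replicate 1 and 2.65% to 20.3% in replicate 2, and for DDX5 0% to 12.9% and 6.68% to 25.3%. The U2AF1L4 intron overlapped between replicates (1.69% to 12.9% and 7.94% to 18.3%). So did the PRPF8 intron, at 12.4% to 14.8% in replicate 1 and 8.79% to 15.3% in replicate 2. Over all genes the share of unspliced reads at intron borders was also lower in replicate 1, by less (0.965% to 1.21% against 1.92% to 2.29% in replicate 2), and its part in the retention values was not tested. Among deletions the SNRNP70 intron ranged from 20.5% to 80.6% and its difference from controls passed in none.

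The SNRNP70 intron holds a 60-base cassette exon (chr19:49102114-49102173), shown because its stop codon, in capitals, ends the reading frame in the 3 annotated GENCODE v29 transcripts of the nonsense-mediated decay class that use its 3′ splice site; 1 protein-coding transcript uses that site too.
SNRNP70 exon: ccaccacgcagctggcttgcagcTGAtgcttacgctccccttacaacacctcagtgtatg
It was included at 23.4% and 22% with DDX5 deletion hgRNA 1 and 30.2% and 33% with hgRNA 2, against 14.9%, 12.2%, 15.2% and 17.4% in controls. The groups did not overlap, and the Wilson intervals of the closest libraries were 18.7% to 25.4% over 580 reads in the deletion and 14.1% to 21.1% over 456 reads in controls. The difference of 12.2 points did not pass over all events (adjusted p = 0.0865, limma; 0.808 in the fit over all libraries). The other 18 deletion libraries were at 4.84% to 21.5%. Replicate 1 of the 4 knockouts was at 0% to 0.87% (0 of 358 reads in the DDX17 knockout, with a 95% Wilson bound of 1.06%, and of 0.838% by a limit of 3 counts), and replicate 2 at 6% to 22.1%.

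**Figure D5:**
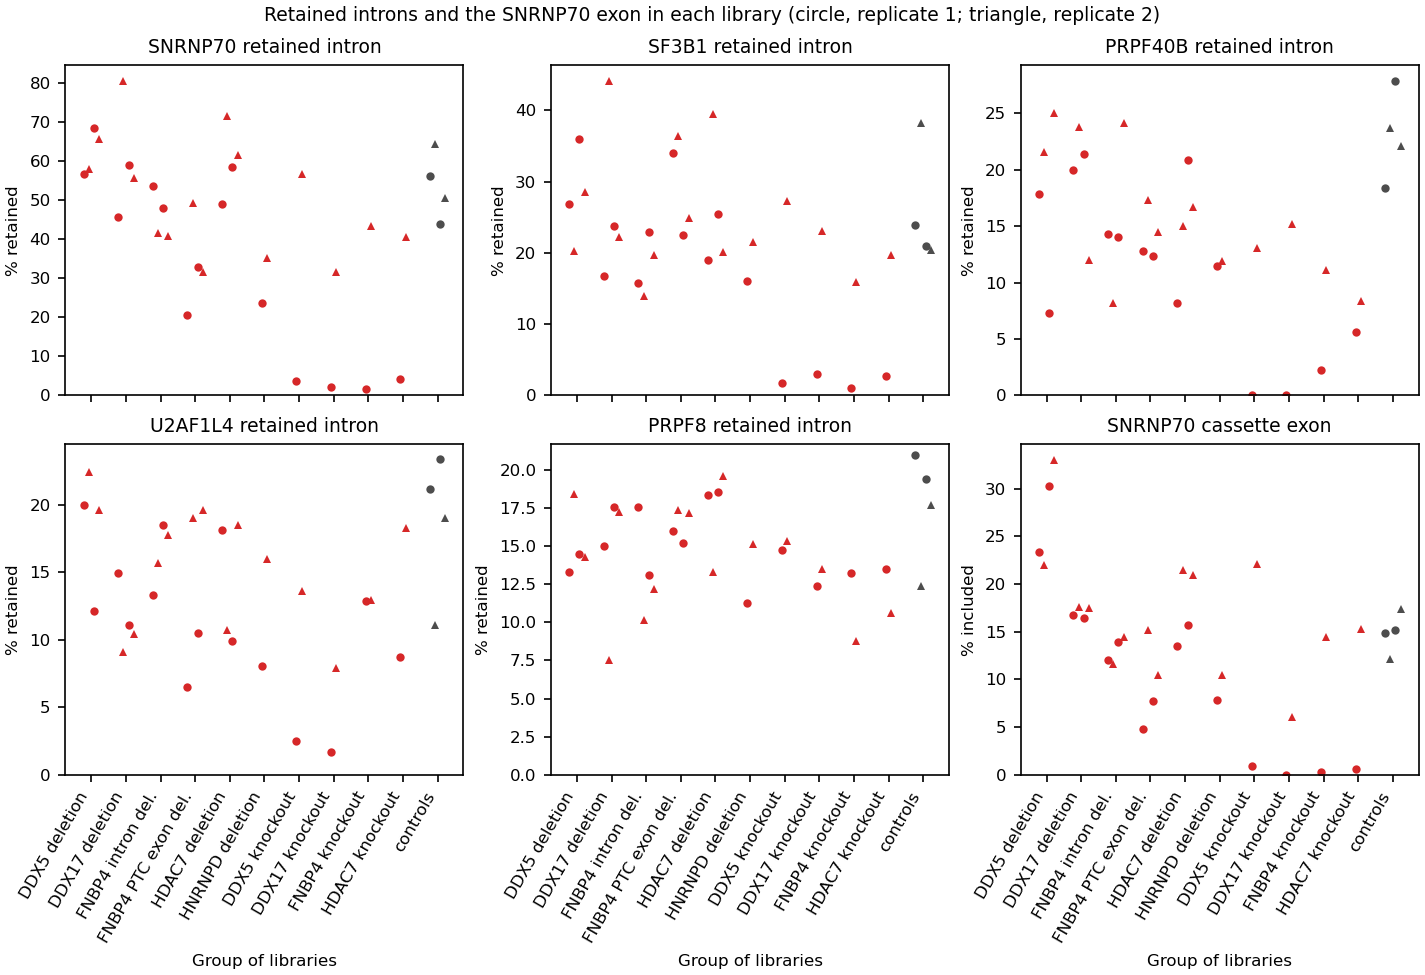
Each panel shows 1 retained intron or the SNRNP70 exon, with the percentage retained or included (y axis) by group of libraries (x axis), red for edited and grey for control libraries, circles for replicate 1 and triangles for replicate 2. Knockout circles sit near 0 for the SNRNP70 and SF3B1 introns and for the exon, below every other library, while the PRPF8 intron shows no such split; the exon is highest in the DDX5 deletion (22% to 33%).

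The member events with the smallest p in each comparison were small in size and passed in none. In the DDX5 deletion this was a PRPF8 intron (chr17:1673198-1673356), up by 1.37 points (adjusted p = 0.0585, limma; 0.0422 in the fit over all libraries, where its size was under 10 points). In the FNBP4 PTC exon deletion it was an LSM10 exon, down by 1.69 points (0.296; 0.0305 in the fit over all libraries). The others were an LSM4 exon in the DDX17 deletion (-1.47 points, 0.778), a PRPF40B exon in the FNBP4 intron deletion (5.3 points, 0.457), an LSM2 exon in the HDAC7 deletion (-5.75 points, 0.749) and a PRPF4B intron in the HNRNPD deletion (-1.84 points, 0.459). In the knockouts they were an SF3B3 alternative 5′ splice site for DDX5 (0.39 points, 0.404), a PRPF8 intron for DDX17 (-2.4 points, 0.363), a PRPF3 intron for FNBP4 (-2.43 points, 0.279) and an SNRPD2 intron for HDAC7 (-0.165 points, 0.365).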

How the data were processed

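The authors' deposited expression table holds RPKM, log2 fold changes and FDR q-values per hgRNA, replicates combined, for which the submitters' processing notes name Salmon 1.10 and edgeR; an aligner and build are not named in the sources at hand. The deposited splicing table, in vast-tools format per the file headers, gives for every event and library a percent value and a string of junction read counts; 2 columns that match no sample were not used. Its introns matched GENCODE v29 on GRCh38 (99.98%).

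Spliced reads of introns were summed per gene (100% whole numbers; Python 3.11.15, numpy 2.4.6). Genes with 10 reads at median depth in 2 libraries and 15 in all were scaled by TMM factors and tested with limma 3.58.1 (voom, R 4.3.3) over all 34 libraries with a coefficient for each hgRNA, after removal from each library of a lowess trend (span 0.3) with GC content and transcript length. A contrast set the average of an edit's hgRNAs against that of both control hgRNAs, and a call needed a Benjamini-Hochberg adjusted p under 0.05. CPM are values after trend removal. Events were tested on log2 ratios of inclusion to exclusion reads (pseudocount 1, 20 reads in every library) with the libraries of 1 comparison. The gene fit was first run on simulated counts, which held no trend with GC content or length. For events, a separate copy of the model was run on simulated reads, not the code used on the data. Alternatives were other size factors, no filter, no trend removal, fewer libraries and a replicate block.

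The labels call the replicates biological duplicates. Their numbers do not pair edited with control samples in general: replicate deviations correlated above 0.1 in 24 of 136 group pairs (median -0.0044). Numbers did go together among the 4 knockouts (0.401 to 0.498 in all 6 pairs) and among control hgRNA 1, DDX17 deletion hgRNA 1 and HDAC7 deletion hgRNA 1 (0.396 to 0.573 in all 3 pairs). The members and lists were chosen with earlier results of these data known. Named were up to 4 higher and 4 lower members with the smallest p per comparison, members called in 3 or more, the member event with the smallest p, 2 other spliceosome genes per comparison and the edited gene. The SNRNP70 introns and exon and members named beyond this were chosen after values were seen. Values of 1 member are not reported here. Figures were drawn with matplotlib 3.10.9.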

Additional observations from a re-analysis of the deposited data

Results flagged for a closer look

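SNRNP27 with DDX5 deletion hgRNA 2 replicate 1, at 44.58 CPM, lay far below the other 3 DDX5 deletion libraries. PRPF40B at 27.11 CPM and SF3A2 at 197.7 CPM, both with FNBP4 PTC exon hgRNA 3 replicate 1, lay far above the other 3 libraries of that deletion. LSM8 at 10.86 CPM was far above the other controls in control hgRNA 1 replicate 2. These are 4 of 84 groups of 4 libraries examined (4.76%), where chance flags about 1 in 20.

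Some members were called in opposite directions in 2 comparisons. Because these pairs were picked for that, the p-values of the differences below are descriptions. Each difference was fitted with limma between the edited groups themselves, so no control library enters the difference. LSM6 differed by 1.202 on the log2 scale between the HNRNPD deletion (10.2 CPM) and the DDX5 deletion (4.43 CPM; adjusted p = 1.4e-05). PRPF38A differed by 0.69 between the FNBP4 PTC exon deletion (11.2 CPM) and the DDX5 deletion (6.93 CPM; 2.15e-05), and by 0.78 between the FNBP4 PTC exon deletion and the DDX17 deletion (6.56 CPM; 1.2e-05). PRPF4B differed by 0.92 between the FNBP4 PTC exon deletion (54.7 CPM) and the DDX5 knockout (29.4 CPM; 0.000136). SNRPA differed by 0.54 between the FNBP4 PTC exon deletion (43.9 CPM) and the DDX5 deletion (30.15 CPM; 2.06e-05), and by 0.68 between the HNRNPD deletion (48.3 CPM) and the DDX5 deletion (1.78e-05). SNRPA1 differed by 0.89 between the FNBP4 knockout (66.8 CPM) and the FNBP4 PTC exon deletion (35.97 CPM; 4.24e-06). All 7 also passed without trend removal (adjusted p of 4.77e-05 for PRPF38A against the DDX17 deletion, and at most 0.000845, for SNRPA in the FNBP4 PTC exon deletion).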

How the results depend on the processing

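The number of members called was 9, 3, 3, 12, 1 and 6 in the DDX5, DDX17, FNBP4 intron, FNBP4 PTC exon, HDAC7 and HNRNPD deletions and 5, 1, 7 and 6 in the DDX5, DDX17, FNBP4 and HDAC7 knockouts. Without trend removal it was 5 in the DDX5 deletion, 1 in the FNBP4 intron deletion, 1 in the DDX5 knockout, 4 in the FNBP4 knockout and 0 in the DDX17 deletion, HDAC7 deletion and DDX17 knockout. With the comparison's own libraries and controls alone it was 20 (DDX5 deletion), 0 (DDX17 deletion), 8 (FNBP4 intron deletion), 6 (FNBP4 PTC exon deletion), 0 (HDAC7 deletion), 0 (DDX17 knockout), 1 (FNBP4 knockout) and 3 (HDAC7 knockout). Without the filter on low counts it was 1 (DDX17 deletion), 7 (FNBP4 PTC exon deletion), 0 (HDAC7 deletion) and 0 (DDX17 knockout), and with median-ratio size factors 0 (DDX17 knockout) and 4 (FNBP4 knockout). Without replicate 2 of control hgRNA 1, DDX17 deletion hgRNA 1 and HDAC7 deletion hgRNA 1 it was 0 (DDX17 deletion), 5 (FNBP4 PTC exon deletion), 2 (HDAC7 deletion) and 3 (DDX17 knockout). Without replicate 1 of the 4 knockouts, chosen after the data were seen, it was 7 (DDX17 deletion), 1 (DDX5 knockout), 0 (DDX17 knockout), 1 (FNBP4 knockout) and 0 (HDAC7 knockout); against the other 3 knockouts it was 0, 0, 1 and 0 in the DDX5, DDX17, FNBP4 and HDAC7 knockouts, where SNRNP27 (-0.0089) and SNRPB (-0.0664) in the FNBP4 knockout and PRPF4 (-0.0179) in the HDAC7 knockout turned sign. With the replicate number as a block the DDX17 deletion had 5, and the block ended none of the 53 calls. Leaving out 1 library gave 2 to 9, 0 to 9, 0 to 2, 2 to 18, 0 to 2 and 2 to 5 in the 6 deletions and 0 to 5, 0 to 1, 0 to 4 and 0 to 6 in the 4 knockouts, in the order above; the cause was not tested. Apart from the fit without trend removal, the share of all genes called in these alternative fits is not given here. Their counts therefore say nothing particular about the members. A knockout or HNRNPD deletion left with 1 library is assumed to vary like the other groups. Member events stayed at 0 in every fit with the limit of 10 points. Both depth and the spread between duplicates limit the event tests: the PRPF40B intron had 23 to 75 reads, and the SNRNP70 intron, with 138 to 646, had an SD of 20.8 to 37.5 points within a knockout.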
